A study of Mus musculus with 48 samples.

Results

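Axon guidance genes encode the ligands and receptors that steer growing axons, and in the mature cortex many of them act at synapses. They were taken as every protein-coding gene whose symbol begins with Sema, Plxn, Slit, Robo, Epha, Ephb, Efna, Efnb or Unc5, together with Nrp1, Nrp2, Dcc, Ntn1 and Ntn4, and without the Slitrk genes. The rule found 69 of the 48526 genes in the count table. They comprised 13 membrane semaphorins, 7 secreted class 3 semaphorins, 11 plexins and neuropilins, 3 Slit ligands, 4 Robo receptors and 2 netrins. A further 6 genes were listed as netrin receptors, with Unc5cl placed among them by its symbol. There were also 5 ephrin-A ligands, 3 ephrin-B ligands, 9 EphA receptors and 5 EphB receptors. The remaining gene, Unc50, matched by its letters only, since it encodes a Golgi protein and no guidance receptor, and it was kept in the counts because the rule holds it.

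RNA was sequenced from the cerebral cortex of 12 untreated male C57BL/6JRj mice, 4 at 3 weeks (3w), 4 mature adults (5m) and 4 at 18 months (18m). The age of the adults was written as 6 months in one label and as 5 months in the protocol, and 5m is used here. From each mouse, synaptosomes (SYN, resealed nerve terminals with attached postsynaptic membrane) and total homogenate (TH) were sequenced as input RNA and after pelleting through a sucrose cushion (SC), which collects ribosomes with the RNA they carry. This gave 48 libraries in 12 groups of 4, named below by RNA type, compartment and age, and each mouse gave 1 library to each of the 4 fractions. All animals were wild type, and the labels set the groups apart by age and fraction only. A synaptosome preparation is not purely neuronal, and a cushion pellet can hold other heavy particles besides translating ribosomes.

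Guidance ligands act on the growth cone through a small number of receptor families. Semaphorins bind plexins, the class 3 members mostly with neuropilins as co-receptors. Slits bind Robo receptors, netrins bind Dcc and the Unc5 receptors, and ephrins bind Eph receptor tyrosine kinases in a contact-dependent way that can signal into both cells. Beyond wiring, Eph receptors, semaphorins and plexins are known for roles in dendritic spines and synapse number, in oligodendrocytes and in blood vessels.

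Library totals lay between 1780267 and 18590040 counts, with a median of 10815833.5 in input_TH, 8643431 in SC_TH, 3756951 in input_SYN and 7298371 in SC_SYN. The 69 genes together took 0.923% ± 0.05 (SD, n = 4) of the counts in SC_SYN at 3w, 0.894% ± 0.031 at 5m and 0.77% ± 0.051 at 18m. In SC_TH the shares were 0.502%, 0.511% and 0.515% at the same ages, so that the SYN shares lay above the TH shares throughout. Efna4 and Epha1 had too few reads to be tested at any age in each fraction, Unc5cl also in SC_TH, Unc5cl, Robo4 and Sema3g also in SC_SYN, and these 3 with Epha2 also in input_SYN. The 14100 protein-coding genes tested in input_TH had a median exonic length of 4586.5 bases and a GC content of 49.9%, against 6848 bases and 55.5% for the guidance genes.

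The members differed widely in level. Expressed per kilobase of annotated exon, as CPM per kb (CPM being counts scaled to a common library total), the 10 highest over all libraries were Sema7a, a membrane-anchored semaphorin, at a median of 75.2, Ephb6, an Eph receptor with an inactive kinase domain, at 58.5, Sema6b at 58.3 and Epha4 at 50.9, followed by Efnb3, Unc5a, Slit1, Plxna4, Plxna1 and Epha6 between 38.8 and 21.8. Membrane semaphorins, plexins, Eph receptors, a Slit, an ephrin-B ligand and a netrin receptor were thus among the highest. At the other end Robo4, Sema3g, Epha2, Efna4 and Epha1 lay between 0.414 and 0.0552 CPM per kb, and Unc5cl had a median of 0. The order changed with the fraction. Sema7a was first in input_TH at 43.8, in SC_TH at 57.2 and in SC_SYN at 121 CPM per kb, whereas Sema6b was first in input_SYN at 123. Neighbours in this order, such as Ephb6 and Sema6b, were not tested against each other.

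**Figure D1:**
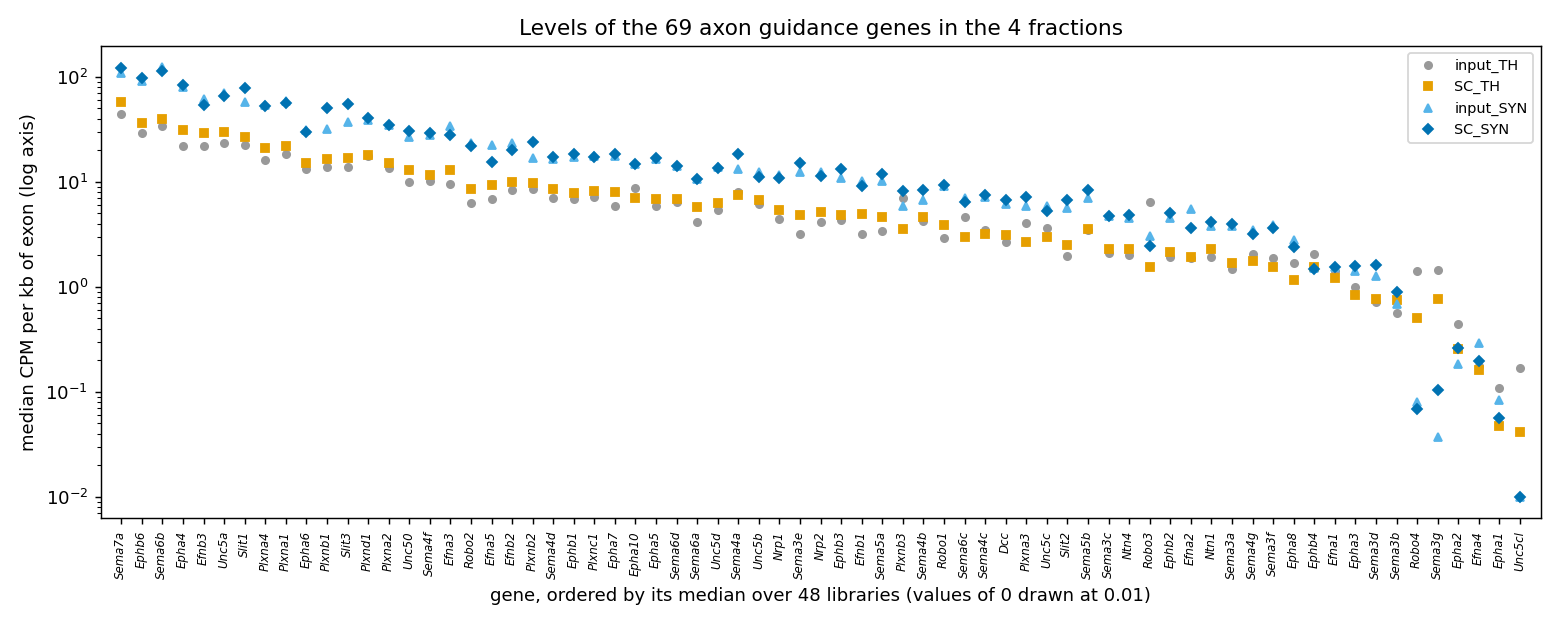
Level of the axon guidance genes as median CPM per kb of exon (vertical log axis), with genes ordered along the horizontal axis and 1 symbol for each of the 4 fractions. For Sema7a, Ephb6, Sema6b and Epha4 the 2 synaptosome symbols lie above the 2 homogenate symbols, and for Robo4 and Sema3g below them.

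The first comparison asked whether guidance transcripts were present in synaptosomes at another share than in the whole cortex. They were higher in SYN than in TH almost throughout. In the ribosome pellets at 3w, 59 of the 66 genes tested were higher in SC_SYN and 2 were lower, where 31.1% of all genes tested were higher and 32.4% lower. At 5m the counts were 61 higher and 2 lower, against 32.1% and 35.8% of all genes. The 18m pellets gave 61 and 2, against 29.9% and 32.2%. The median log2 fold change of the members was 1.29, 1.24 and 0.979 at the 3 ages, beside -0.0423, -0.0907 and -0.0701 over all genes. Input RNA gave similar counts, with 58 higher and 4 lower at 3w (31.7% and 39.3% of all genes), 57 and 5 at 5m (32.6% and 40.1%), and 58 and 4 at 18m (32.9% and 39.4%), and medians of 1.30, 1.31 and 1.29 beside -0.179, -0.176 and -0.12. Over both RNA types and all 3 ages, 56 members were higher in every comparison and 2, Robo4 and Sema3g, were lower in every one. These 2, and Epha2 in the input, were too low to be tested in SYN alone. They passed the filter on low counts through TH, so that a lower value in SYN was favoured for them by the filter.

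Scaling shifted this picture as a whole. When libraries were scaled by their totals in place of trimmed mean of M values (TMM) factors, the median over all genes moved to -0.588 at 3w, -0.676 at 5m and -0.6 at 18m in the pellets and to between -0.83 and -0.696 in the input. The pellet members called were then 57, 55 and 45 higher, and the input members 48, 47 and 45. The share of higher genes among all calls fell from between 44.6% and 49% to between 20.5% and 25.4% over the 6 comparisons. In the pellets the members' median stood 1.33 above the median of all genes at 3w and at 5m and 1.05 above it at 18m under both scalings. This gap cannot test the scaling, because a change of scaling shifts all genes of a comparison by about the same amount. No member called higher became called lower, and those whose fold change turned negative were Unc5b in the 18m pellets and Sema4a, Plxna3, Epha3, Sema6c and Sema4b in one or more of the input comparisons. In bulk RNA of this kind, fewer cells or terminals of a type and less RNA in each cannot be told apart.

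**Figure D2:**
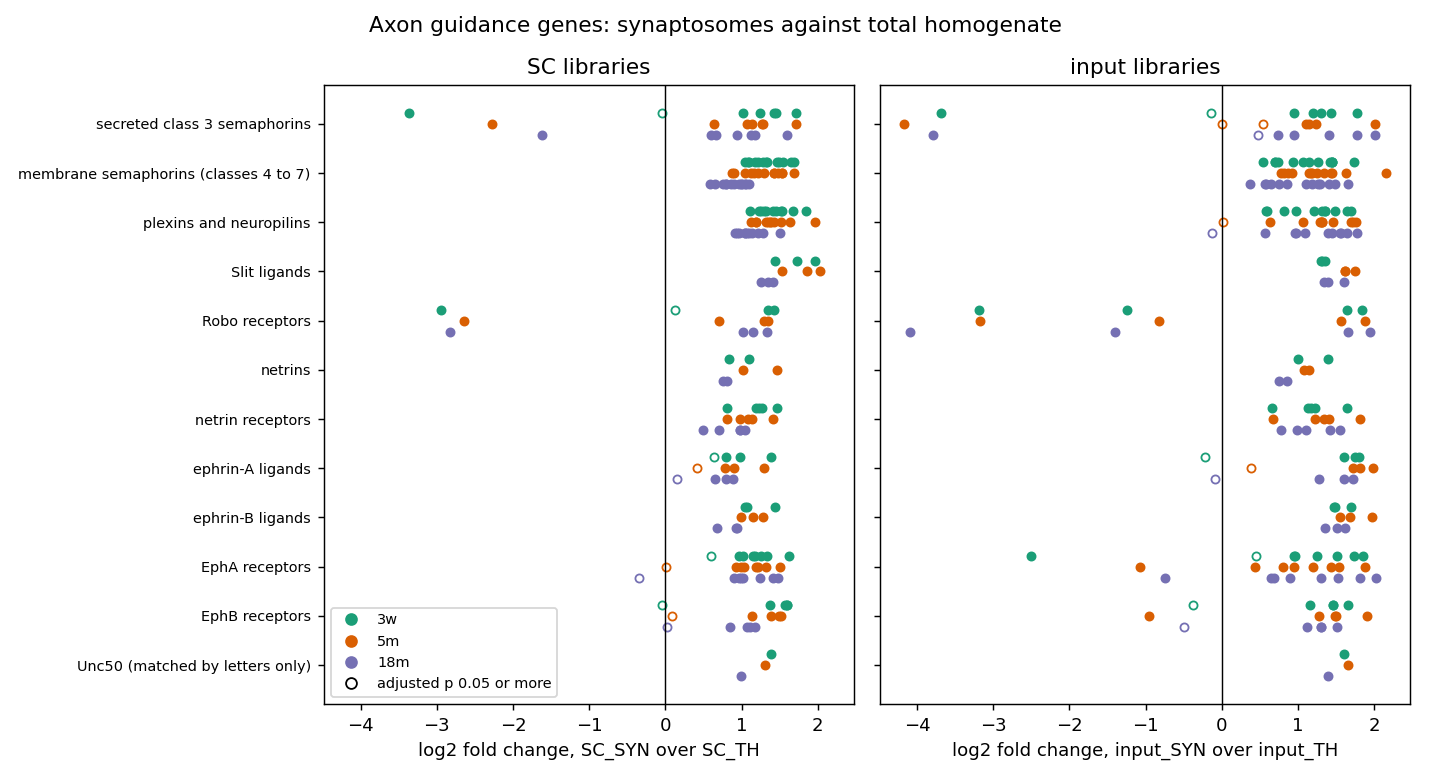
Log2 fold change of SYN over TH for each axon guidance gene by family, in ribosome pellets and in input RNA at 3 ages (open circles mark genes not past the threshold). Most points lie between 0.5 and 2, and Sema3g and Robo4 stand far below 0.

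Among the ligands, all 13 membrane semaphorins, all 3 Slits, both netrins and all 3 ephrin-B genes were higher in SC_SYN at each age. Slit1, a secreted repellent that binds Robo receptors, lay at 831, 621, 653 and 612 CPM in the 4 SC_SYN libraries at 5m and at 195, 142, 147 and 193 CPM in SC_TH. Every synaptosome pellet stood above every homogenate pellet. The log2 fold change was 2.03 ± 0.17 (SE, adjusted p = 2.74e-10, edgeR's quasi-likelihood test), the largest rise among the members at that age, and it was 1.96 at 3w and 1.35 at 18m. Slit2 gave 1.53 at 5m and Slit3 gave 1.86. Of the secreted class 3 semaphorins, Sema3e had the highest value at 3w at 1.72 ± 0.098 (adjusted p = 2.35e-13), with 119, 162, 152 and 123 CPM in SC_SYN and 42.8, 47.7, 43.1 and 41 CPM in SC_TH. Sema6b, a transmembrane semaphorin that binds plexin-A receptors, rose most in the input at 5m, from 116, 119.8, 131 and 108 CPM in input_TH to 557, 498, 514 and 549.6 CPM in input_SYN. This was a log2 fold change of 2.16 ± 0.11 (adjusted p = 8.01e-16). The ephrin-A genes and the class 3 semaphorins held the exceptions among the ligands. In the pellets at 3w, Efna1 (0.635, adjusted p = 0.0821) and Sema3b (-0.0429) were not past the threshold, and Sema3g is described below.

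Among the receptors, the 11 plexins and neuropilins were all higher in SC_SYN at each age, with medians of 1.41, 1.37 and 1.07. Plxna4, a co-receptor for class 3 semaphorins, had 694, 757, 789 and 724 CPM in the 3w SC_SYN libraries against 244, 259, 280.5 and 278 CPM in SC_TH. The groups lay far apart, at a log2 fold change of 1.53 ± 0.074 (adjusted p = 2.48e-14). Plxnb1, the receptor of Sema4d, reached 1.97 ± 0.13 at 5m (adjusted p = 2.02e-12). Of the EphA receptors, 7 of 8 tested were higher in the pellets at each age. Epha4, which binds both ephrin classes, had 683, 539.9, 739 and 586 CPM in input_SYN at 18m against 170.4, 147, 159.8 and 149 CPM in input_TH, and its log2 fold change there was 2.03 ± 0.097 (adjusted p = 1.22e-16). Of the 5 EphB receptors, 4 were higher in the pellets at each age. Ephb4, a receptor best known from veins, did not pass the test in the pellets (-0.0437 at 3w) and was lower in the input at 5m at -0.949 ± 0.29 (adjusted p = 0.00472). Robo1 and Robo2 were higher in each of the 6 comparisons, and Robo2 gave 1.84, 1.88 and 1.95 in the input. All 5 netrin receptors tested were higher in the pellets, from 0.803 to 1.47 at 3w.

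A few members went the other way, among them genes known mainly from blood vessels. Robo4, an endothelial receptor, had 2.73, 2.67, 4.81 and 4.4 CPM in SC_TH at 3w against 0.208, 0.196, 0.418 and 0.947 CPM in SC_SYN, which rested on 1 to 5 reads a library there. No SYN library reached the lowest TH library. Robo4 and Sema3g, too low to be tested within SC_SYN alone, had passed the filter on low counts here through TH, as had Epha2 in the input. The log2 fold change of Robo4 in the pellets at 3w was -2.95 ± 0.44 (adjusted p = 2.08e-06). Sema3g, a class 3 semaphorin of endothelium, was at -3.36 ± 0.40 at 3w, -2.27 at 5m and -1.62 at 18m in the pellets, and 6 of the 12 input_SYN libraries held no read of it. Epha2 was lower in the input at -2.50, -1.07 and -0.743, and its 18m call was lost with the mouse as a replicate block, without the filter on low counts and without mouse 195, 196 or 197, with adjusted p up to 0.203 and values from -1.32 to -0.539 over the alternatives. All 10 of a list of endothelial marker genes were also lower in SYN in each of these comparisons, with a median of -2.60 in the pellets at 3w, and their summed level was 24.9 to 35.2 CPM in SC_SYN and 146 to 178 CPM in SC_TH at 3w. Only 5 of these 10 markers passed the filter on low counts within SC_SYN alone. The others entered the pellet comparison through TH, so that a lower value in SYN was favoured for them by the filter. Emcn and Ly6c1 were at 0 in 11 and 5 of all 48 libraries, respectively. The part of endothelial cells in the lower values was not tested.

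Robo3, a divergent Robo receptor, was the only member called in both directions. It was higher in the pellets at 5m (0.705 ± 0.15, adjusted p = 0.000231) and 18m (1.02 ± 0.15, adjusted p = 4.24e-06) and lower in the input at each age (-1.24, -0.827 and -1.4). At 18m it had 43, 43.4, 31.8 and 40.1 CPM in input_TH and 14.3, 13.7, 13.9 and 17.3 CPM in input_SYN, but 7.57, 7.33, 6.46 and 7.51 CPM in SC_TH and 9.06, 18.8, 15.7 and 12.2 CPM in SC_SYN. Homogenate input was thus its highest fraction and homogenate pellets its lowest.

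Other cell types moved with the same contrast. All 10 astrocyte markers were higher in SC_SYN at each age (median 1.41 at 3w), with summed levels of 16600 to 19500 CPM in SC_SYN and 6990 to 7410 CPM in SC_TH at 3w and no marker at 0 in any library. Of 10 microglia markers 9 were higher at 3w, and 8 of 10 mature oligodendrocyte markers. Excitatory neuron markers did not move one way (4 higher, 3 lower, median -0.176), and 9 of 9 nuclear RNAs were lower with a median of -3.06. The part of these cells in the members' values was not tested.

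Genes that work downstream of or beside the guidance receptors moved in both directions. Of 60 partners and effectors, 28 were higher and 22 lower in SC_SYN at 3w, with a median of 0.14, beside the 31.1% and 32.4% of all genes given above, and 26 to 29 were higher and 17 to 21 lower in the input. In the pellets at 3w the largest rises were those of the cell adhesion molecules L1cam (1.92 ± 0.098), Nrcam (1.66) and Chl1 (1.61), and the largest falls those of the cytoplasmic proteins Myo9b, an unconventional myosin (-1.07), Mical3, a monooxygenase (-1.05), and the kinase Pak3 (-1.0). In the input Adam10, a membrane protease, also rose, at 1.95 at 3w and 2.18 at 18m, and Myo9b was at -2.06 at 3w. The genes named were picked as the largest called changes in each direction, so that their place above or below 0 was set by this choice.

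The compartment difference was then compared between ages. In each mouse, the median log2 ratio of SYN over TH across the 69 genes was taken. In the pellets it was 1.24 ± 0.094 (SD, n = 4) at 3w, 1.21 ± 0.053 at 5m and 0.925 ± 0.18 at 18m. The 4 old mice lay at 0.692, 0.867, 1.06 and 1.08, all below the lowest value of the younger mice, 1.15. The lowest of them, mice 195 and 198, had 6268207 and 5341263 counts in SC_SYN against 18590040 and 15306804 in mice 196 and 197, while the 3w libraries, with 5415274 to 6132944 counts, gave ratios of 1.17 to 1.37. The SYN over TH difference of 9 nuclear RNAs moved the other way, with a median of -3.06 at 3w, -2.34 at 5m and -1.43 at 18m, as their summed level went from 1310 to 2560 CPM at 5m to 2750 to 3790 CPM at 18m in SC_SYN and from 8840 to 12200 down to 6220 to 7330 CPM in SC_TH. The part of depth and nuclear RNA in the lower values of the old mice was not tested. In the input the means were 1.22 ± 0.13, 1.30 ± 0.088 and 1.17 ± 0.11, and the ages overlapped. Gene by gene, the change of the SYN over TH difference from 5m to 18m in the pellets passed the test for no member, and for 0% of all genes tested. It was below 0 for 59 of the 66 members, at a median of -0.238 beside 0.0116 over all genes. An unadjusted p under 0.05 was found for 18 members, beside 2855 of all 16630 genes, and DESeq2 called 0 members and 255 genes. The members with the smallest p, none of which passed, were Sema6b (-0.624, adjusted p = 0.134), Ntn4, a netrin related to laminins (-0.657), and Sema4f (-0.496). Leaving out one mouse at a time, the members' median lay between -0.286 and -0.195.

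From 3w to 5m the same test in the pellets called 0 members, beside 0.0301% of all genes. Unadjusted p was under 0.05 for 3 members (1324 of all 16630 genes), and DESeq2 called 0 (55 of all genes). Sema4d (-0.416, adjusted p = 0.275), Sema6a (-0.418) and Robo3 (0.582) had the smallest p. In the input the same test called 0 members from 3w to 5m, beside 0.0224% of all genes. Unadjusted p was under 0.05 for 6 members (1437 of all 17860 genes), and DESeq2 called 0 (25 of all genes). Here Plxnb3 (-0.565, adjusted p = 0.37), Sema6b (0.435) and Epha3 (-0.517) came first. From 5m to 18m edgeR's test called 1 member in the input, and 1.01% of all genes higher and 1.41% lower. That member was Sema6b, at -0.68 ± 0.15 (adjusted p = 0.0193). Input_SYN fell from 557, 498, 514 and 549.6 CPM at 5m to 369.6, 465, 307 and 486 CPM at 18m, while input_TH rose from 116, 119.8, 131 and 108 to 132, 160.3, 139 and 154 CPM. Neither pair of groups overlapped. Without mouse 192 or 194, or in a fit of all 48 libraries, Sema6b was not called. With the mouse as a replicate block 3 members were called (661 of all genes). None was called when the trend on GC content and length was removed as well (24 of all genes), where Sema6b stood at -0.179 (adjusted p = 0.561).

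**Figure D3:**
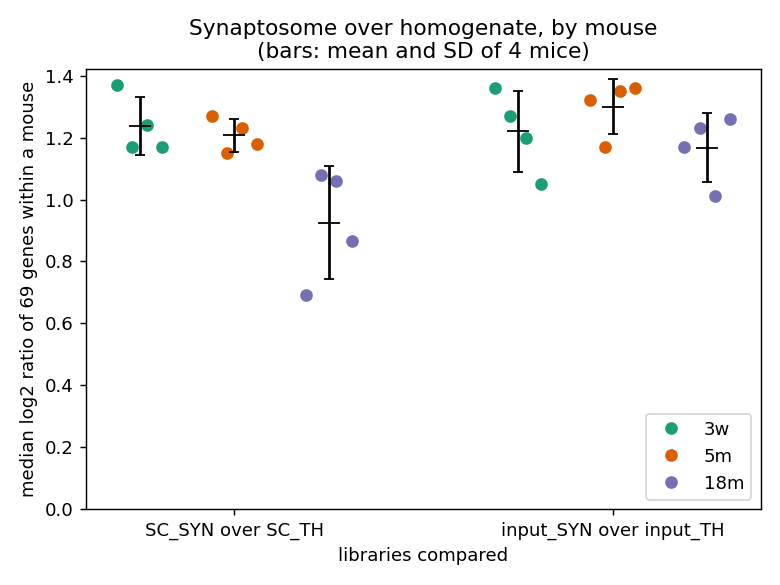
Median log2 ratio of SYN over TH across the 69 axon guidance genes in each of the 12 mice, for ribosome pellets and input RNA (bars are the mean and SD of 4 mice). The 4 old mice sat between 0.692 and 1.08 in the pellets, below the younger mice.

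The next comparison was of 5m with 3w within each fraction. Here a small set of members changed, mostly downward, and 27 were called in at least 1 fraction, none of them in both directions. In SC_SYN, 2 of the 64 genes tested rose and 8 fell, beside 4.02% of all genes higher and 4.02% lower. In SC_TH 5 rose and 10 fell of 66 (9.48% and 8.46%), in input_SYN 2 rose and 8 fell of 63 (1.28% and 1.94%), and in input_TH 6 rose and 15 fell of 67 (4.76% and 7.05%). The median over the members was -0.0156, -0.0367, -0.0504 and -0.11 in these fractions, beside -0.00648, 0.00681, -0.000372 and 0.0115 over all genes. With the trend on GC content and length removed, 1 member rose and 12 fell in SC_SYN (545 and 652 of all 14240 genes), at a median of -0.153 beside -0.000547 over all genes. Scaling by library totals gave 1 and 11 there and 8 and 14 in input_TH, and it moved the share of higher genes among all calls from 50% to 39.2% and from 40.3% to 59.2%. Most members thus did not pass the test in any one fraction.

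Sema6a, Sema4d, Plxnb3 and Ephb1 fell in all 4 fractions, and Slit1 rose in all 4. For 3 of the falling genes the RefSeq sequence of the 200 bases upstream of a start site is shown, because these were genes that moved together. The sequences are of the mouse build GRCm38.p6, read along the gene, in lower case with searched motifs in capitals, and the motifs were the GC box (GGGCGG), the TATA box (TATAAA), the CCAAT box (CCAAT) and a SOX-type box (ACAAAG), each on both strands.
Ephb1, chr9:102354694-102354893, minus strand: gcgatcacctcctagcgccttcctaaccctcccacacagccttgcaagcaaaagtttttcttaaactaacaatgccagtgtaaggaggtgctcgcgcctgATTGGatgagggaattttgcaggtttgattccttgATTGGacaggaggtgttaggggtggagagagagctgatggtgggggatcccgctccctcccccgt
Plxnb3, chrX:73756903-73757102, plus strand: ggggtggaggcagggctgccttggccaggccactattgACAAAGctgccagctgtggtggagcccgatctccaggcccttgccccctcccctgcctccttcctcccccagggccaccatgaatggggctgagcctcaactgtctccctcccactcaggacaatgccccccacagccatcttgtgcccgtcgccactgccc
Sema4d, chr13:51739447-51739646, minus strand, 1 of 3 listed starts: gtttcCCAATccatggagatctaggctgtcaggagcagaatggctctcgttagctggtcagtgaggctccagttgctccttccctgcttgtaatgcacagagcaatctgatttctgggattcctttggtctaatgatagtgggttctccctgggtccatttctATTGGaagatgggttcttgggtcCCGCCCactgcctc

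The Ephb1 window held 2 CCAAT boxes, the Plxnb3 window 1 SOX-type box, and the Sema4d window 1 GC box and 2 CCAAT boxes. Their GC content was 53.5%, 66.5% and 51.5%. No motif of the 4 was thus in all 3 windows, while the Ephb1 and Sema4d windows shared the CCAAT box. Starts whose window held more than 30 exonic bases were passed over, and of the rest the start nearest the gene's 5' end was taken. For Sema4d this start lies inside the gene, whose annotated 5' end is at chr13:51793747. The Ephb1 and Plxnb3 windows lie at the annotated 5' end. Promoter windows were found for 59 of the 69 members, and over the 75 windows of these members 72% held a GC box, 2.67% a TATA box, 24% a CCAAT box and 9.33% a SOX-type box, beside 31%, 9.96%, 29.3% and 13.3% of 32851 windows of the same length over all genes. These matches describe the letters only. The sequence of Sema6a, the other falling gene, is not shown, and that of Slit1 was not used here.

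Sema6a, a transmembrane semaphorin that binds plexin-A receptors and is made by oligodendrocytes among other cells, fell the most in 3 of the 4 fractions. It was at 266, 199, 212 and 194 CPM in SC_SYN at 3w and at 85.8, 88.2, 95.6 and 96.8 CPM at 5m. In input_TH it went from 81.4, 66.8, 70.4 and 67.9 CPM to 36, 32.6, 36.1 and 38.9 CPM. The ages did not overlap in either fraction. Its log2 fold change was -1.29 ± 0.13 (adjusted p = 2.3e-05) in SC_SYN, and it was -0.858 ± 0.08 in SC_TH, -1.0 ± 0.07 in input_TH and -1.14 ± 0.12 in input_SYN.

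Sema4d, a transmembrane semaphorin that binds plexin-B1, went from 256, 225, 234 and 222 to 124, 139, 130.1 and 138 CPM in SC_SYN, with no overlap. Its log2 fold change was -0.864 ± 0.10 (adjusted p = 0.00019) there, -0.719 in input_SYN, -0.428 in SC_TH and -0.529 in input_TH. Plxnb3, a plexin that is expressed in oligodendrocytes and binds Sema5a, fell from 146, 76.6, 106 and 94.9 to 54.7, 46.2, 51 and 46.3 CPM in SC_SYN. The 3w mouse 187 was highest, and the lowest 3w library still lay above every 5m library. This was a log2 fold change of -1.14 ± 0.19 (adjusted p = 0.0025), beside -0.613 in SC_TH, which lost its call without mouse 187 (adjusted p = 0.059), -1.21 in input_SYN and -0.623 in input_TH. Ephb1, an EphB receptor with a role in axon crossing at the optic chiasm, went from 183, 189, 202 and 169 to 120, 117, 126 and 136 CPM, again without overlap. Its log2 fold change was -0.616 ± 0.10 (adjusted p = 0.00286) in SC_SYN and between -0.487 and -0.405 in the other fractions. A part of its exons, 2.17% of their length, overlaps the gene Gm26846, which counting without strand cannot separate.

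Slit1 rose in SC_SYN from 393, 230.5, 362 and 347 to 831, 621, 653 and 612 CPM and in SC_TH from 75.7, 75.2, 109.5 and 93.9 to 195, 142, 147 and 193 CPM. Every 5m library lay above every 3w library in both pellets. The log2 fold change was 0.982 ± 0.19 (adjusted p = 0.00621) in SC_SYN, 0.934 ± 0.13 in SC_TH, 0.699 ± 0.18 (adjusted p = 0.0374) in input_SYN and 0.281 ± 0.068 in input_TH, where the ages overlapped. The call in input_SYN was lost whichever mouse of the 8 was left out. At 18m the SC_SYN values were 343, 539.9, 527 and 371 CPM, which overlapped the 3w values and all lay below those at 5m.

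**Figure D4:**
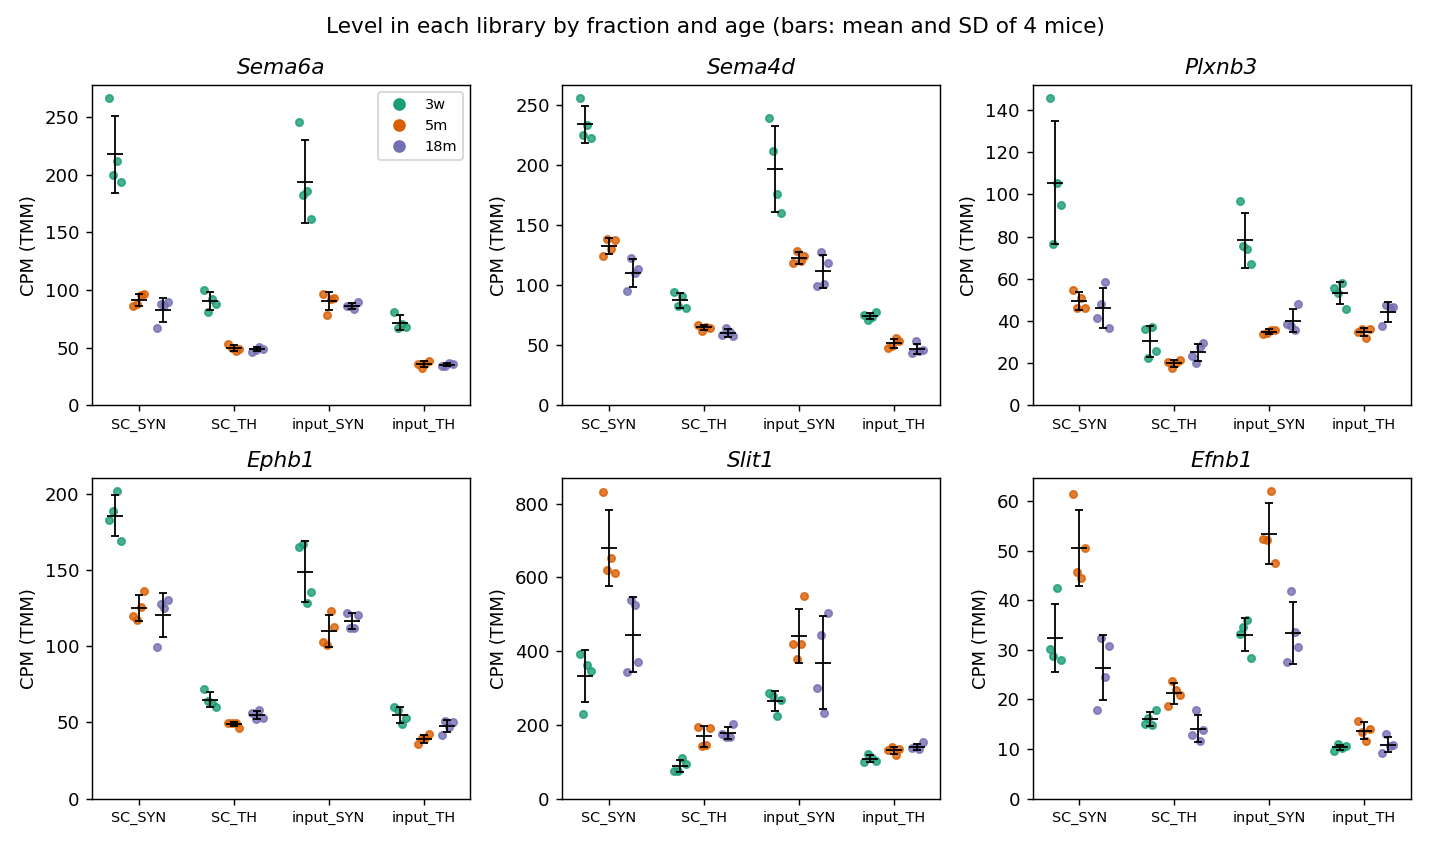
CPM of Sema6a, Sema4d, Plxnb3, Ephb1, Slit1 and Efnb1 in each library, by age and fraction (each point 1 mouse, bars the mean and SD). The 4 falling genes were highest at 3w by their mean in each fraction, and Slit1 was lowest at 3w by its mean.

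Other members that changed from 3w to 5m did so in some fractions only. Sema3d (-1.06 ± 0.18 in SC_SYN, adjusted p = 0.00289) and Sema3c (-0.542 in SC_SYN), both secreted class 3 semaphorins, fell in 3 fractions each. Epha3, an ephrin-A receptor, fell in 3 fractions, from -0.564 in SC_TH to -0.775 in input_SYN, and Unc5b, a netrin receptor also known from vessels, fell in 3 (-0.494 to -0.571). Robo3 fell in both TH fractions (-0.699 ± 0.12 in SC_TH, adjusted p = 0.00126). Unc5a, a netrin receptor, rose in both pellets, by 0.618 ± 0.17 in SC_SYN (adjusted p = 0.0424) and 0.688 ± 0.11 in SC_TH. Its SC_SYN call was lost without any 1 of mice 188 to 194. Scaling by library totals and removing the GC and length trend lost it too, and its values over the alternatives ran from 0.259 to 0.714. Efnb1, an ephrin-B ligand, rose in 3 fractions, from 0.40 in input_TH to 0.655 ± 0.15 in input_SYN (adjusted p = 0.0189). Plxnc1, the receptor of Sema7a, rose in both TH fractions (0.398 in SC_TH and 0.299 in input_TH). Several of these calls were lost when single mice were left out. Of 13 alternatives, 8 of which left out 1 mouse, Efnb1 lost its call in 9 in SC_TH, 7 in input_TH and 5 in input_SYN, Unc5b in 7 and Sema3d in 6 in input_SYN, and Epha3 in 6 in each SYN fraction, with adjusted p up to 0.25 for Efnb1 in SC_TH. In input_TH Epha2, Sema3g and Epha10 also rose, at 0.587 to 0.756, 0.343 to 0.583 and 0.283 to 0.385 over the alternatives. Their calls were lost in 10, 7 and 2 of the 13. Nrp2, a neuropilin, rose in SC_TH (0.416 ± 0.12), and its call was lost in 4. The change from 3w to 5m was compared between compartments above, where no member passed. It was also compared between pellet and input as ribosome association, where Slit1 and Sema3g passed in TH.

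Oligodendrocyte genes fell over the same interval. Of 10 mature oligodendrocyte markers 8 fell in SC_SYN, 8 in SC_TH and 9 in input_TH, and 8 of the 9 tested in input_SYN, with medians of -1.24, -0.976, -1.25 and -1.42. Their summed level in SC_SYN was 8650 to 10500 CPM at 3w and 3500 to 3810 CPM at 5m, and only Aspa was at 0, in 1 library. Of 10 oligodendrocyte precursor markers 6 fell in each SYN fraction, 7 in SC_TH and 9 in input_TH. Microglia markers rose, 6 of 10 in SC_SYN (median 0.758) and 4 of 10 in SC_TH and in input_SYN, and 5 of 10 endothelial markers and 5 of 9 nuclear RNAs fell in SC_TH. The part of these cells and RNAs in the changes of the members, such as the falls of Sema6a, Sema4d, Plxnb3 and Ephb1 was not tested. Among the 60 partners and effectors, 2 rose and 8 fell in SC_SYN, beside 4.02% of all genes each way, where Draxin, a secreted guidance protein (-1.55 ± 0.32, adjusted p = 0.0102), Dpysl3, a protein of growth cones (-0.994), and the kinase Fyn (-0.816) fell the most and Mical3 (0.528) rose the most. In input_TH 1 rose and 16 fell, beside 4.76% and 7.05% of all genes.

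The last age comparison was of 18m with 5m. In SC_SYN no member passed edgeR's quasi-likelihood test, beside 0.0140% of all 14240 genes. An unadjusted p under 0.05 was found for 24 of the 64 members, beside 2474 of the 14240 genes. DESeq2 called 6 members, all lower, beside 327 of all genes. A fit of all 48 libraries called 17 of 66 members, all lower, beside 1457 of 18112 genes. The members' median was -0.249 with 57 of 64 below 0, beside a median of 0.0106 and 51.5% of genes above 0 over all genes. Without one mouse at a time the median stayed between -0.3 and -0.207. The 3 members with the smallest p, none of which passed, were Efnb1 (-0.905 ± 0.18, adjusted p = 0.139), Ephb3 (-0.685 ± 0.14, adjusted p = 0.139) and Epha10 (-0.538 ± 0.13, adjusted p = 0.155). Efnb1 was at 61.3, 45.7, 44.5 and 50.6 CPM at 5m and at 17.9, 32.3, 24.5 and 30.8 CPM at 18m, and Ephb3, a receptor of ephrin-B ligands, was at 113, 84, 90.8 and 86.9 CPM and at 48.7, 71.6, 56.9 and 50.5 CPM. The groups did not overlap for either gene. By family, the medians ran from -0.462 for the Slits and -0.391 for the ephrin-A genes to -0.0113 for the class 3 semaphorins. None of the marker lists tested had a called gene in this contrast, and the medians of the astrocyte and mature oligodendrocyte markers were -0.118 and -0.104. The 9 nuclear RNAs were all above 0, at a median of 0.279, and their part was not tested. In input_SYN no member passed either, beside 0.139% of all genes. An unadjusted p under 0.05 was found for 9 members (1214 of all 12975 genes), and DESeq2 called 1 (54 of all genes). The median was -0.0978, and Efnb1 again had the smallest p at -0.679 (adjusted p = 0.0909), followed by Ephb3 (-0.455, adjusted p = 0.23) and Robo3 (-0.623, adjusted p = 0.23).

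In SC_TH 3 members fell and none rose of 66, beside 1.79% of all genes lower and 0.377% higher, and the median was 0.00275. Epha10, an Eph receptor with an inactive kinase domain, went from 55.9, 58.3, 60.1 and 61.8 to 43.5, 48.8, 41.6 and 46.7 CPM (-0.372 ± 0.074, adjusted p = 0.0167). Efnb1 went from 18.7, 23.7, 21.9 and 20.8 to 12.9, 17.9, 11.6 and 13.9 CPM (-0.579 ± 0.12, adjusted p = 0.0216). Robo3 went from 10.6, 9.47, 10.5 and 12.4 to 7.57, 7.33, 6.46 and 7.51 CPM (-0.569 ± 0.12, adjusted p = 0.0216). For all 3 genes every old library lay below every 5m library. Without mouse 193, 195 or 197 none of the 3 was called.

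In input_TH 7 members rose and 6 fell of 67, beside 8.18% of all genes higher and 7.35% lower. These shares were close to the background, and the median was -0.000218. With the trend on GC content and length removed none rose and 5 fell (514 and 445 of all 18078 genes). Each of the rises named here then lost its call, with Sema6b at 0.0251, Sema5b at 0.058 and Ephb6 at 0.143. A fit of all 48 libraries called 1 each way (91 and 92 of all 18112 genes). Scaling by library totals gave 6 higher and 11 lower, and it moved the share of higher genes among all calls from 52.7% to 32.6%. The largest rises were those of Unc5b (0.397 ± 0.078, adjusted p = 0.00496), Plxnb3 (0.356), Ephb6 (0.345), Sema6b (0.304), Ephb1 (0.271) and Sema5b (0.266). Unc5b went from 28.6, 34.4, 29.3 and 30.4 to 37.2, 43.4, 37.6 and 43.1 CPM, without overlap. Sema3g (-0.524), Epha3 (-0.512), Sema3a, a secreted repellent found in perineuronal nets (-0.40), Nrp1, its co-receptor (-0.372 ± 0.059, adjusted p = 0.00206), Ephb2 (-0.339) and Plxna2 (-0.194) fell. Nrp1 went from 44.6, 49.8, 43.5 and 47.4 to 37, 34.7, 35.2 and 35.8 CPM, and Sema3a from 20.3, 20.5, 20.3 and 21 to 15.3, 15.6, 17.5 and 13.7 CPM, so that ligand and co-receptor both lay lower in every old mouse. Both calls were lost with the GC and length trend removed, at -0.186 for Sema3a and -0.194 for Nrp1, and in the fit of all 48 libraries, with adjusted p up to 0.175 and 0.138 over these alternatives. Of the endothelial markers 4 of 10 also fell in this contrast, and 4 of 10 mature oligodendrocyte markers rose, and their part was not tested. Over the 4 fractions 16 members were called in at least 1, and none in all.

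**Figure D5:**
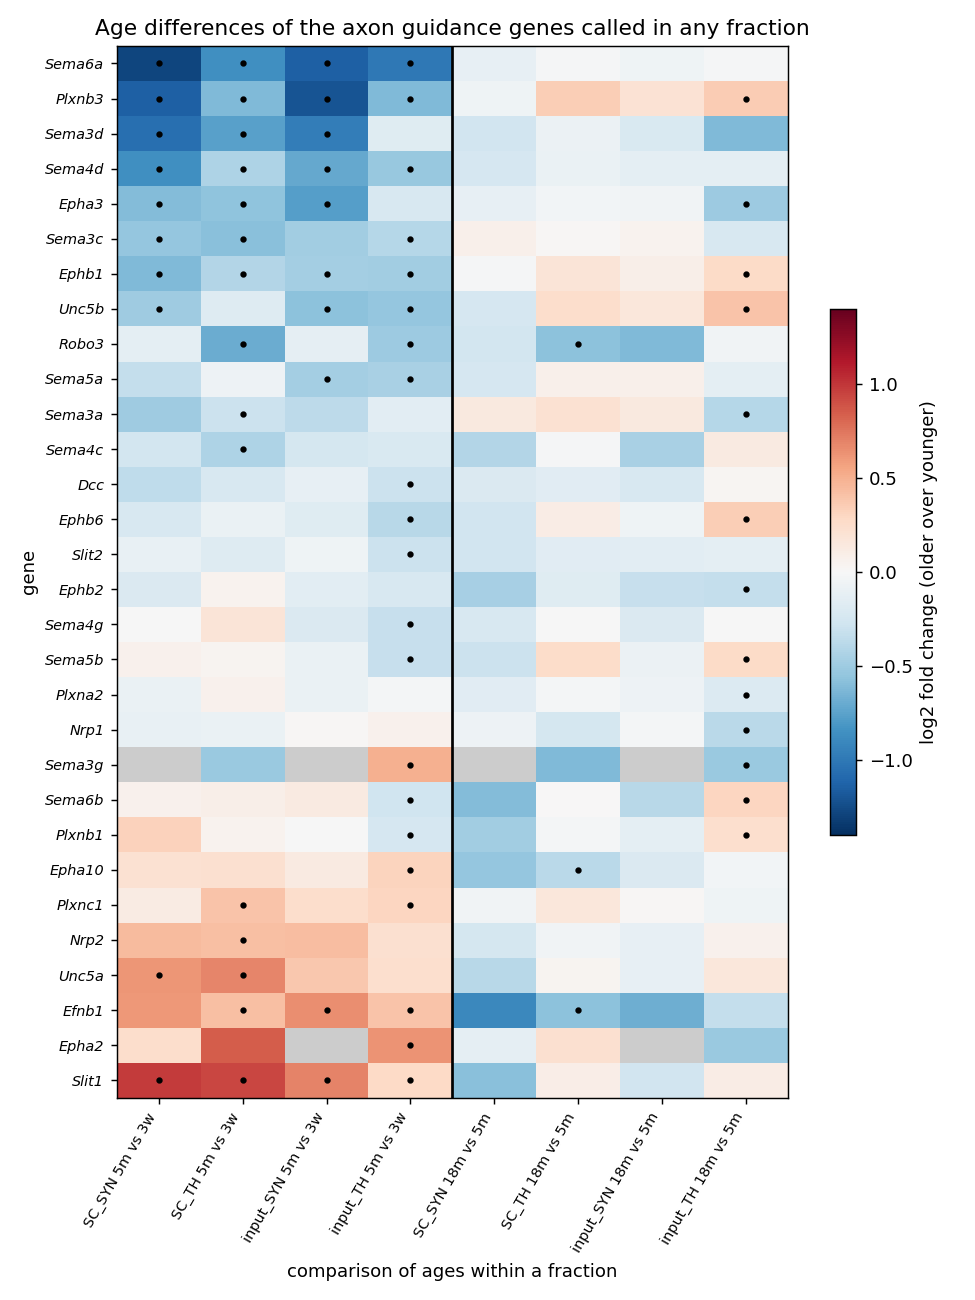
Log2 fold change between ages in each fraction for the 30 axon guidance genes called in any of the 8 comparisons (dots mark calls, grey marks genes not tested). Blue and red blocks for Sema6a, Sema4d, Plxnb3, Ephb1 and Slit1 run across the 4 fractions from 3w to 5m, and the 18m vs 5m columns hold few dots outside input_TH.

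Finally, the ratio of pellet to input RNA, read here as a measure of ribosome association (TE), was compared between ages. In synaptosomes no member passed the test from 3w to 5m, beside 0% of all genes, and 0 members had an unadjusted p under 0.05 among 473 genes that did, with 0 by DESeq2. From 5m to 18m no member passed either, and no gene of the 14301 tested did. The members' median was -0.118, with 7 of 63 above 0, beside -0.00712 over all genes. An unadjusted p under 0.05 was found for 2 members, beside 393 of all genes, and DESeq2 called 0 members. These 2 were Sema4f, at a log2 change of -0.469, and Sema5a, at -0.315, both membrane semaphorins.

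In homogenate 1 member rose and 1 fell from 3w to 5m, beside 1.00% and 1.32% of all genes. Slit1 rose by 0.631 ± 0.16 (adjusted p = 0.0331), as its mean went from 88.6 to 169 CPM in SC_TH and from 108 to 132 CPM in input_TH. Sema3g fell, at -1.04 ± 0.27 (adjusted p = 0.039), from 4.84 to 3.41 CPM in SC_TH and from 6.31 up to 8.98 CPM in input_TH. The Slit1 call was lost without mouse 187, 188, 191 or 194, and the Sema3g call without mouse 187, 188, 190, 191, 193 or 194. Both were also lost in a fit of all 48 libraries. That of Slit1 was lost too with the mouse as a replicate block and the GC and length trend removed. The lowest Slit1 value over the alternatives was 0.394. From 5m to 18m 1 member rose and none fell, beside 0.608% and 1.17% of all genes. It was Sema3a, at 0.617 ± 0.12 (adjusted p = 0.0116), with 21.8, 18.9, 21.7 and 21.8 CPM at 5m and 23.5, 22.9, 26.8 and 24.1 CPM at 18m in SC_TH, while its input_TH level fell as given above. Without mouse 193 or 198, or in a fit of all 48 libraries, Sema3a was not called.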

How the data were processed

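The authors assigned single-end reads to genes with unstranded featureCounts after alignment with TopHat2 2.1 to the mouse build GRCm38; per the submitters' processing notes base calls were converted with bcl2fastq 2.20.0.422. The deposited values are raw counts for 48526 Ensembl gene IDs in 48 libraries. The pellet libraries carried adaptors with molecular identifiers. Which sequencing run held which library, and whether the identifiers were used in counting, is not given in the sources used here. IDs were matched to GENCODE M21, which held 48144 of them, and the others took 0.0596% of the counts. Unstranded counting leaves genes that overlap on opposite strands mixed, as for Efna3, Plxna1 and Ephb1.

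Counts were tested with edgeR 4.0.16 in R 4.3.3 (quasi-likelihood test, TMM factors, filterByExpr), with Benjamini-Hochberg adjustment over all genes tested and a threshold of 0.05. Age was fitted within each fraction, compartments and ribosome association in joint fits with interaction terms. Values per library are CPM on TMM-scaled libraries, and log2 values per mouse used a prior count of 2. DESeq2 1.42.0, library-size scaling, no filter, one fit of all libraries, a GC and length trend (loess span 0.5), the mouse as a replicate block, and leaving out each mouse were alternatives. The block pairs fractions that came from the same animal. Median correlations of their deviations lay between -0.0331 and 0.123 for the 6 pairs of fractions. The fits for age, for ribosome association and for the change of the compartment difference were tested on simulated counts, with some of the alternatives. The direct SYN over TH comparisons, the other alternatives and the remaining steps were not tested in this way. P-values set a difference between groups against the spread between libraries within groups, estimated over all groups of a fit. In the joint fits, libraries of the same mouse were treated as independent, except with the mouse as a replicate block.

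Up to 6 genes per direction and comparison were named by size among those past the threshold, or the 3 with the smallest p where none passed, and 10 by level. The members and gene lists were chosen with earlier results of these data known, and the promoter motifs after the results had been seen. Promoter sequences are RefSeq's, build GRCm38.p6. Protein sequences were not used here.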

Additional observations from a re-analysis of the deposited data

Results flagged for a closer look

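In 6 of 108 groups of 4 mice that were examined, 1 mouse stood apart from the other 3 by Dixon's criterion (critical value 0.829), and chance gives this in about 5.4 of that many groups. The share is the gap of that mouse to its neighbour over the range of the group. Sema3a in SC_TH at 5m had a share of 0.965, with mouse 192 at 18.9 CPM and the others at 21.7 to 21.8 CPM. Epha2 in input_TH at 3w had 0.938, with mouse 187 at 2.07 CPM against 1.55 to 1.58 CPM. Sema5b in input_TH at 5m had 0.921, with mouse 191 at 18.9 CPM against 21.2 to 21.4 CPM. Sema3g in input_TH at 3w had 0.914, with mouse 187 at 6.77 CPM against 6.13 to 6.19 CPM. Plxnb3 in input_TH at 18m had 0.866, with mouse 195 at 37.4 CPM against 46.1 to 47.5 CPM. Sema3d in SC_SYN at 5m had 0.858, with mouse 191 at 10.2 CPM against 13.8 to 14.4 CPM. These groups belong to different genes and fractions, and mice 187 and 191 appeared more than once.

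Sema6b was the 1 member whose change from 5m to 18m differed between compartments in the input, at -0.68 on the log2 scale (SYN change minus TH change), and at -0.179 and not called with the mouse as a replicate block and the GC and length trend removed.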

How the results depend on the processing

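Of 113 results on single genes, 78 kept their call under every alternative run, 35 lost it in at least 1 and 0 reversed. These were at most the 6 largest called changes per direction and comparison, a choice that favoured calls that hold. The losses were uneven. Among the SYN over TH results so chosen only Epha2 in the input at 18m lost its call. All other losses were among results on age, ribosome association or the change of the compartment difference with age. Over all members called higher in SYN, scaling by library totals kept 57 of 59, 55 of 61 and 45 of 61 in the pellets. In the input it kept 48 of 58, 47 of 57 and 45 of 58, at 3w, 5m and 18m in turn. Counts of members called moved as follows, and the cause was not tested. In SC_SYN from 3w to 5m, one fit of all 48 libraries gave 19 and DESeq2 16, in place of 10 (over all genes 3464 and 1767, in place of 1146). In SC_SYN from 5m to 18m no filter gave 2, all 48 libraries 17 and DESeq2 6, in place of 0, and in input_SYN each of these 3 gave 1 in place of 0. Over all genes the same settings gave 60, 1457 and 327 in place of 2 in SC_SYN, and 102, 35 and 54 in place of 18 in input_SYN. In input_TH the fit of all 48 libraries gave 11 in place of 21 from 3w to 5m and 2 in place of 13 from 5m to 18m, where removing the GC and length trend gave 5. Over all genes these fits gave 761 in place of 2136, and 183 and 959 in place of 2808. For ribosome association in TH from 3w to 5m, no filter gave 7, all 48 libraries 0 and DESeq2 6, in place of 2, and from 5m to 18m all 48 libraries gave 0 and DESeq2 4, in place of 1. Over all genes these gave 1303, 0 and 1169 in place of 429, and 16 and 719 in place of 328. For the compartment difference of the input from 5m to 18m, library size gave 2, all 48 libraries 0 and DESeq2 5, in place of 1 (over all genes 623, 77 and 1055, in place of 432). Pairing fractions by mouse as a replicate block gave 3 there, and 0 with the GC and length trend removed as well (661 and 24 over all genes). The latter setting gave 1 in place of 0 from 3w to 5m (10 in place of 4 over all genes). The block changed no other count of members by more than 1.5 times.

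Leaving out each mouse gave 7 to 12 calls from 3w to 5m in SC_SYN, 11 to 20 in SC_TH, 4 to 7 in place of 10 in input_SYN, each below the full count whichever mouse was left out, and 16 to 21 in input_TH. From 5m to 18m it gave 0 to 0, 0 (without mouse 193, 195 or 197, and 1 without mouse 198) to 3, 0 to 1 (without mouse 196) and 10 to 16. SYN over TH gave 61 to 62, 62 to 63 and 60 to 63 in the pellets and 60 to 62, 61 to 63 and 60 to 61 in the input at 3w, 5m and 18m. Ribosome association in TH gave 0 (without mouse 187, 188, 191 or 194) to 8 (without mouse 192, and 6 without mouse 189) from 3w to 5m and 0 (without mouse 193 or 198) to 2 (without mouse 191 or 195) from 5m to 18m. The compartment difference of the input from 5m to 18m gave 0 (without mouse 192 or 194) to 1. Depth was lowest in input_SYN, where the fewest members were tested.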

Other observations

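Some genes of the wider list of 60 guidance partners and effectors passed the test for age. In SC_TH 6 rose and 8 fell from 3w to 5m, beside 9.48% and 8.46% of all genes, and the list's median was 0.0155. The lowest of those called were Dpysl3, a growth cone protein (-0.652 ± 0.075, adjusted p = 3.58e-05 in edgeR's test), Rnd2 (-0.515) and Rnd1 (-0.491), both small GTPases, and the highest was Dscaml1, an adhesion molecule (0.538). In input_SYN 0 rose and 2 fell (1.28% and 1.94% of all genes), which were Dpysl3 (-0.912) and Fyn (-0.772). From 5m to 18m in input_TH 5 rose and 7 fell, beside 8.18% and 7.35% of all genes, with the kinase Rock1 (-0.475 ± 0.077, adjusted p = 0.00243) and the adhesion molecule Chl1 (-0.391) lowest and the exchange factor Ngef (0.29) highest. For the compartment difference of the input over the same interval, Rock1 (0.791), Rock2 (0.62) and Pak3 (0.611), kinases that act on the cytoskeleton, rose in SYN relative to TH.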
